A study of Homo sapiens with 11 samples.

Results

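The response of THP-1 cells to dexamethasone (Dex), a synthetic glucocorticoid, was compared between the macrophage state and the monocyte state, gene by gene. THP-1 is a long-established human cell line derived from acute monocytic leukaemia, so both states come from 1 line. RNA was measured by nCounter hybridization, in which a colour-coded probe binds each transcript and is counted without amplification, and the deposited values are normalized, background-subtracted signal in linear units. For each gene the quantity of interest was the difference of the responses: the log2 change Mac_Dex minus Mac_Vehicle, less the log2 change Mono_Dex minus Mono_Vehicle. It is positive where macrophages rose more, or fell less, than monocytes. It was read for the probes whose mean signal was at least 20 units in all 4 groups, which were 294 of the 594 endogenous probes in the table. Several of the 294 share a target, such as the probes for isoforms of CD45 and for FCGR2A.

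Mac_Dex was 2 samples of macrophages, made from the monocytes with a phorbol ester (PMA, 3 h, then 24 h of recovery), that received 100 nM Dex for 6 h. Mac_Vehicle was 3 samples of the same macrophages with vehicle for 6 h. Mono_Dex was 3 samples of THP-1 monocytes, not treated with PMA, with 100 nM Dex for 6 h, and Mono_Vehicle was 3 samples of these monocytes with vehicle. All 4 groups had spent 24 h in medium with charcoal-stripped serum before treatment. PMA drives the macrophage state in culture and was the only inducer named, so state and PMA exposure cannot be told apart. The series design names 12 samples. The authors left out 1 Dex-treated macrophage sample because it grouped with the macrophage controls and showed no rise of FKBP5. The Mac_Dex samples were thus in part kept for their FKBP5 level and for standing apart from the controls. This selection can bear on the macrophage response of every gene. Whether replicates were independent cultures is not stated in the labels, and the p-values rest on sample-to-sample spread alone, which may be technical.

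Glucocorticoids enter the cell and bind the glucocorticoid receptor, a transcription factor that then moves to the nucleus. There it raises the transcription of some genes, among them inhibitors of inflammatory signalling, and lowers that of many genes driven by NF-kB and AP-1. Which sites it reaches differs between cell types, because the chromatin that is open and the partner factors that are present differ. In monocytes and macrophages glucocorticoids are known for lowering cytokines and chemokines.

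The samples could be placed by known markers. Over 10 macrophage markers above the floor in at least 1 group, of 12 on the panel, the summed level was 20278 to 21488 units in Mac_Dex, 24173 to 26701 in Mac_Vehicle, 1126 to 1222 in Mono_Dex and 1528 to 1592 in Mono_Vehicle, while MRC1 and C1QA were below 20 units in every group. Over 7 of 9 monocyte and progenitor markers it was 2224 to 2302 in Mac_Dex, 2560 to 2885 in Mac_Vehicle, 12035 to 12237 in Mono_Dex and 14000 to 15118 in Mono_Vehicle. CD3D, CD3E, MS4A1, CD79A and CD79B, defining markers of T and B cells, were below 20 units in all groups. Both sums were lower with Dex than with vehicle in both states, but they rest on a few abundant genes: CTSG made up 75.4% of the monocyte and progenitor sum in Mono_Dex and 78.3% in Mono_Vehicle. Gene by gene, the Dex mean was below the vehicle mean for 5 of 10 macrophage markers in macrophages and 5 of 6 in monocytes, CD163 being higher with Dex in both, and for 5 of 7 monocyte and progenitor markers in macrophages and 4 of 7 in monocytes, where CCR2 and CSF3R were not lower in either. The monocyte marker CD14 was higher in macrophages, at 188 units in Mac_Vehicle and 53.5 in Mono_Vehicle. The part of these markers in the results below was not tested. In bulk RNA, fewer cells with a transcript and less of it per cell cannot be told apart. Total signal was 742895 to 889658 units per macrophage sample and 372345 to 420466 per monocyte sample. The normalization factor was inferred from the spacing of the low values in each sample. It was 1.21 to 1.52 in macrophages and 0.659 to 0.966 in monocytes. By this factor 20 units stood for 13.2 to 16.5 net counts in macrophages and 20.7 to 30.4 in monocytes. Values near the floor therefore rest on fewer counts in macrophages. Replicates of a group correlated across the 294 genes with Pearson r of 0.9944 to 0.9975 on the log2 scale.

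The response differed between the states for 78 of the 294 genes, 26.5%. The difference was positive for 42 (14.3%) and negative for 36 (12.2%). These counts include FKBP5, for which no test is read because samples were kept for its rise, and without it there were 77 differences, 41 of them positive. The other 77 are not free of that selection, since the left-out sample also grouped with the macrophage controls. How far it changed these counts was not tested. Among all 379 fitted probes, 51 were positive (13.5%) and 47 negative (12.4%), 98 in all (25.9%), so the 294 had shares close to those of the whole fit. The test was limma's interaction term with Benjamini-Hochberg adjustment over the 379 probes, and an adjusted p under 0.05 was called. Of the 42 positive genes, 16 (FKBP5 included) rose in both states and more in macrophages, 11 rose in macrophages with no call in monocytes, and 4 rose in macrophages and fell in monocytes. A further 8 fell in monocytes with no call in macrophages and 3 fell in both states, less in macrophages. Of the 36 negative genes, 17 fell in macrophages with no call in monocytes, 6 fell in both and further in macrophages, and 4 fell in macrophages and rose in monocytes. The remaining negative genes were 5 that rose in monocytes with no call in macrophages and 4 that rose in both, less in macrophages.

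Most differences were of modest size. They reached 1 log2 unit for 20 of the 78 genes, 10 in each direction with FKBP5 included, and were under 0.5 for 28. Over all 294 genes the median difference was 0.04, with quartiles of -0.19 and 0.23, and the standard error of a difference had a median of 0.13. Within each state, Dex raised 66 genes (22.4%) and lowered 75 (25.5%) in macrophages, and raised 50 (17%) and lowered 72 (24.5%) in monocytes, the rises being 65 and 49 without FKBP5. Over the 379 probes these shares were 22.4% and 25.1% in macrophages, and 16.9% and 22.2% in monocytes. Median centring of the samples turned the split to 108 rises and 64 falls in macrophages, and to 77 and 65 in monocytes. The counts of differences depended on single Mac_Dex samples: without Mac_Dex replicate 1 there were 46 positive and 23 negative genes, and without Mac_Dex replicate 5 there were 28 and 40.

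**Figure D1:**
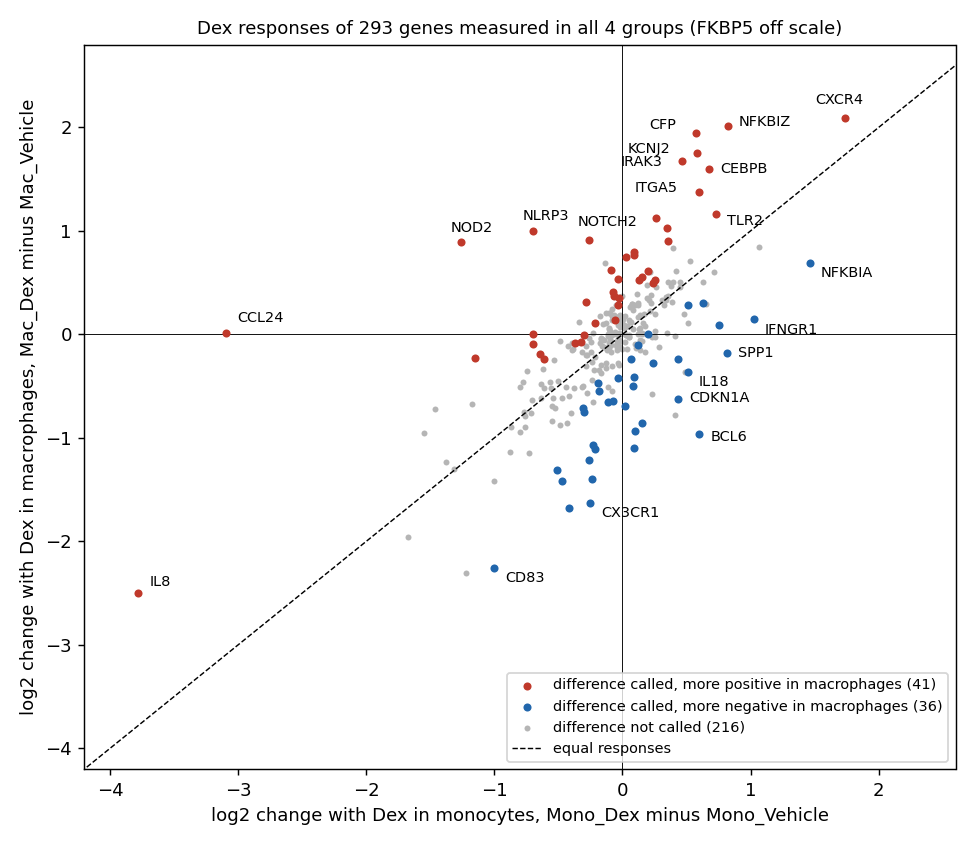
Log2 change with Dex in macrophages (vertical axis) against that in monocytes (horizontal axis) for 293 genes, each point 1 gene; FKBP5 lies off the scale, at 6.29 in macrophages and 4.33 in monocytes. Red points lie above the dashed line of equal responses and had a called positive difference (41 without FKBP5), blue points lie below it with a called negative difference (36), and grey points had no called difference (216).

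Dex moved 8 genes in opposite directions in macrophages and monocytes, and the difference was called for each. Some calls within a state, from the same fit, were near the threshold. In macrophages the adjusted p was 0.0437 for NOD2 and 0.0478 for IL18. In macrophages and monocytes it was 0.0265 and 0.0294 for CD59, and 0.0243 and 0.0335 for IL4R. For NLRP3, NOTCH2, BCL6 and CDKN1A it was at most 0.0147 in either state. These calls were not followed gene by gene when samples were left out. NLRP3, the sensor of the best-studied inflammasome, NOD2, a cytosolic sensor of bacterial cell wall fragments, the receptor NOTCH2 and CD59, an inhibitor of the complement membrane attack complex, rose in macrophages and fell in monocytes. The transcriptional repressor BCL6, the cell-cycle inhibitor CDKN1A (p21), the cytokine IL18 and IL4R, a receptor chain for the cytokines that drive alternative activation, fell in macrophages and rose in monocytes.

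NLRP3 stood at 1756 and 2061 units in Mac_Dex, against 947, 954 and 949 in Mac_Vehicle, and 364, 364 and 427 in Mono_Dex, against 613, 593 and 666 in Mono_Vehicle. The macrophage groups did not overlap and neither did the monocyte groups, with Mac_Dex at 2.01 times the Mac_Vehicle mean and Mono_Dex at 0.617 times the Mono_Vehicle mean. The difference of the log2 responses was 1.70 (SE 0.12, adjusted p = 2.69e-07). NOTCH2 stood at 3927 and 4181 units in Mac_Dex, against 2313, 2101 and 2054 in Mac_Vehicle, and 1386, 1391 and 1356 in Mono_Dex, against 1701, 1625 and 1638 in Mono_Vehicle, and its groups were separate in the same way. Mac_Dex was 1.88 times Mac_Vehicle and Mono_Dex 0.833 times Mono_Vehicle, a difference of 1.18 (SE 0.08, adjusted p = 2.44e-07). NOD2 was far lower and more scattered, at 74.8 and 106 units in Mac_Dex, against 57.8, 66.2 and 28.2 in Mac_Vehicle, and 23.3, 35.1 and 39.1 in Mono_Dex, against 69.0, 78.1 and 85.6 in Mono_Vehicle. Its samples did not overlap between Dex and vehicle within either state, and the difference was 2.14 (SE 0.45, adjusted p = 0.00329). CD59 was expressed mainly in macrophages, at 1223 and 1235 units in Mac_Dex, against 1077, 974 and 924 in Mac_Vehicle, and 70.4, 78.5 and 80.2 in Mono_Dex, against 99.5, 84.8 and 95.5 in Mono_Vehicle. Its difference of 0.60 (SE 0.14, adjusted p = 0.00754) was smaller after quantile normalization, at 0.37 (adjusted p = 0.0332). With the replicate number as a block in the fit it was 0.48 (adjusted p = 0.151).

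BCL6 had the most negative difference of the 294 genes, -1.56 (SE 0.27, adjusted p = 0.000572). Its signal was 359 and 405 units in Mac_Dex, against 851, 729.6 and 658 in Mac_Vehicle, and 42.4, 68.9 and 64.8 in Mono_Dex, against 32.8, 42.1 and 38.2 in Mono_Vehicle. Every Mac_Dex sample lay below every Mac_Vehicle sample, and Mono_Dex lay above Mono_Vehicle, with its lowest sample close to the highest of Mono_Vehicle. CDKN1A was more than an order of magnitude higher in macrophages, at 3650.2 and 3861 units in Mac_Dex, against 6167, 5749 and 5429 in Mac_Vehicle, and 329, 307 and 272 in Mono_Dex, against 226, 216 and 228 in Mono_Vehicle. Mac_Dex was 0.650 times Mac_Vehicle and Mono_Dex 1.36 times Mono_Vehicle, a difference of -1.05 (SE 0.11, adjusted p = 5.43e-06). IL18 was at similar levels in both states, at 156 and 136 units in Mac_Dex, against 183, 207 and 174 in Mac_Vehicle, and 188, 166 and 191 in Mono_Dex, against 137, 112 and 134 in Mono_Vehicle. Here too Dex and vehicle samples were separate within each state, and the difference was -0.87 (SE 0.19, adjusted p = 0.00371). With the replicate number as a block in the fit it was -0.83 (adjusted p = 0.0635). IL4R differed by -0.52 (SE 0.13, adjusted p = 0.00771), with 612 ± 33.9 units in Mac_Dex, against 743 ± 56.9 in Mac_Vehicle, and 261 ± 3.90 in Mono_Dex, against 221 ± 19.5 in Mono_Vehicle (SD, n = 2 in Mac_Dex and 3 in each other group, as for all means below).

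**Figure D2:**
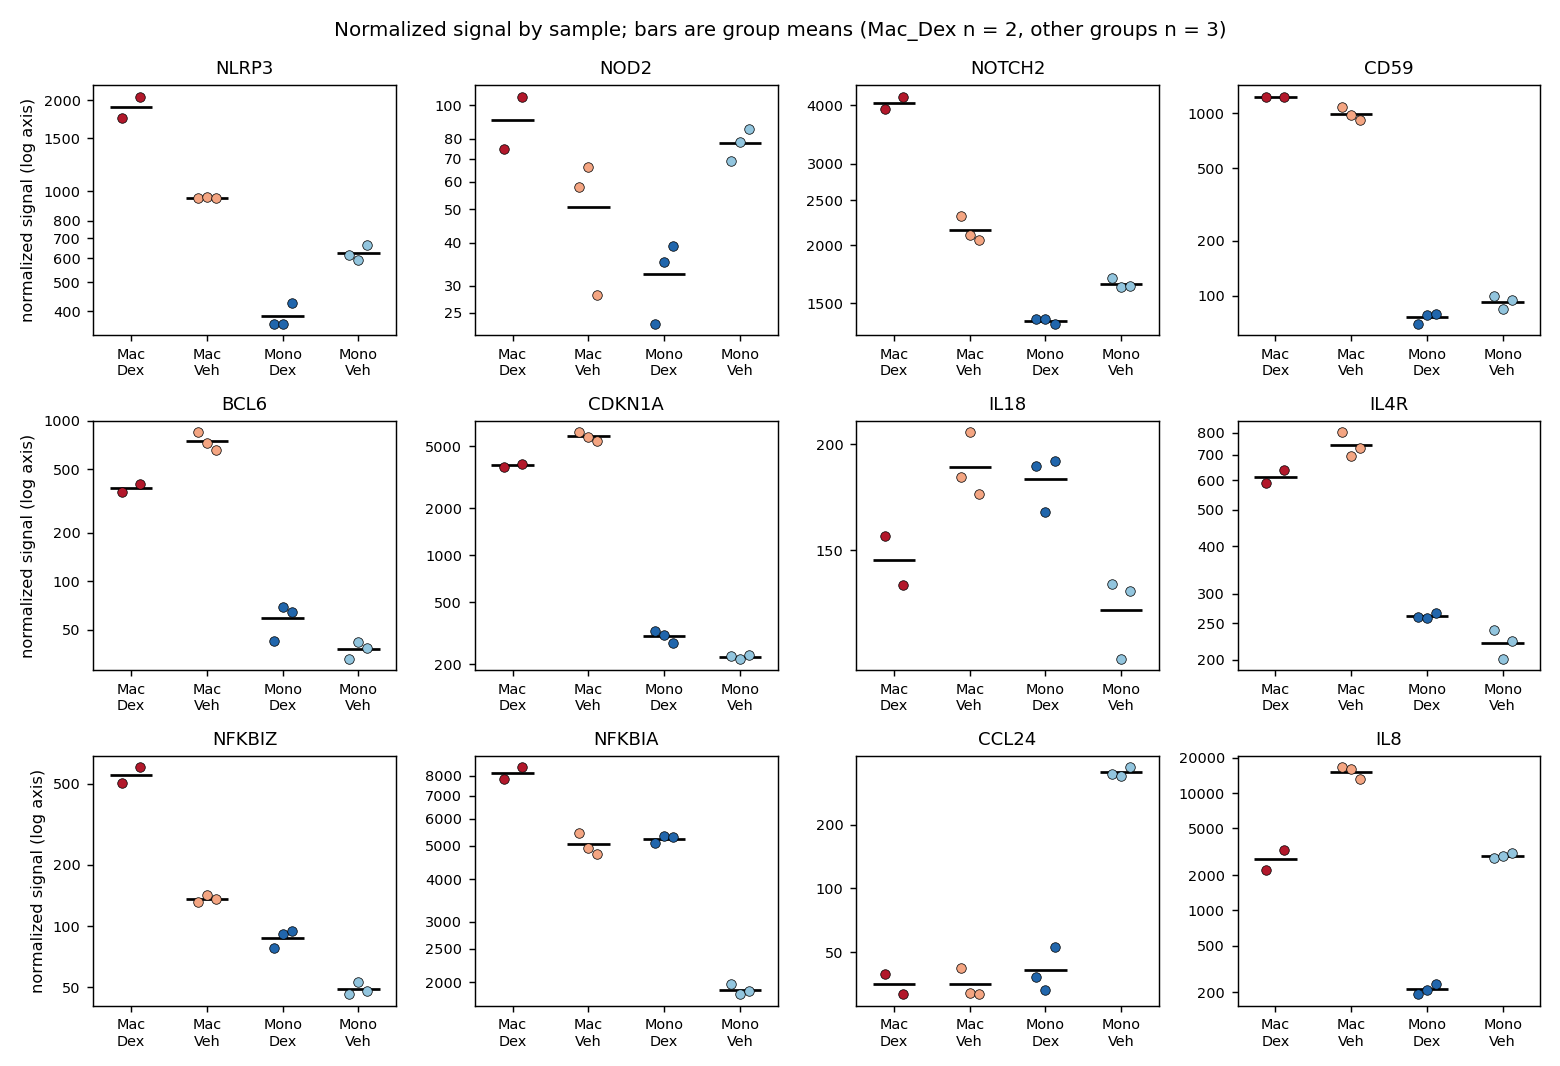
Normalized signal of 12 genes by sample, on a log axis of its own in each panel; each point is 1 sample, black bars are group means, and the groups run Mac_Dex (n = 2), Mac_Vehicle, Mono_Dex and Mono_Vehicle (n = 3 each). NLRP3, NOD2, NOTCH2 and CD59 lie higher with Dex in macrophages and lower with Dex in monocytes, BCL6, CDKN1A, IL18 and IL4R do the reverse, and CCL24 differs between Dex and vehicle in monocytes, where Mono_Vehicle lies at 339.7 to 374 units.

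In the group of 16 genes that rose in both states and more in macrophages were a co-chaperone, inhibitors of innate signalling and receptors. FKBP5, a co-chaperone that holds back the glucocorticoid receptor and is itself a target of it, is given without a test. Its signal was 38036 and 37306 units in Mac_Dex, against 435, 407 and 623 in Mac_Vehicle, and 24832, 24989.9 and 24903 in Mono_Dex, against 1259, 1205 and 1247 in Mono_Vehicle. Mac_Vehicle was below Mono_Vehicle while Mac_Dex was above Mono_Dex, so the rise was 77.1-fold in macrophages and 20.1-fold in monocytes. NFKBIZ encodes an atypical IkB protein that acts in the nucleus on NF-kB target genes. It stood at 507 and 604 units in Mac_Dex, against 132, 141 and 135 in Mac_Vehicle, and 77.8, 91.1 and 94.7 in Mono_Dex, against 46.1, 53.0 and 48.0 in Mono_Vehicle, a 4.08-fold rise in macrophages and a 1.79-fold rise in monocytes. The difference was 1.19 (SE 0.20, adjusted p = 0.000517). IRAK3, an inhibitory member of the IRAK family that dampens Toll-like receptor signalling, stood at 510.1 and 536 units in Mac_Dex, against 155, 167 and 166 in Mac_Vehicle, and 629.8, 629.7 and 719 in Mono_Dex, against 526, 443 and 463 in Mono_Vehicle. Its level was lowest in Mac_Vehicle, and the Mac_Dex samples reached the level of Mono_Vehicle. The difference was 1.21 (SE 0.13, adjusted p = 7.9e-06).

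CFP encodes properdin, which stabilises the alternative complement convertase. It stood at 134 and 144 units in Mac_Dex, against 28.6, 47.7 and 31.8 in Mac_Vehicle, and 132, 123 and 126 in Mono_Dex, against 90.0, 85.6 and 79.7 in Mono_Vehicle. The Dex groups of both states met at a similar level, with vehicle lower in macrophages, and the difference was 1.38 (SE 0.28, adjusted p = 0.00219). KCNJ2, an inwardly rectifying potassium channel, rose 3.39-fold in macrophages and 1.49-fold in monocytes, a difference of 1.18 (SE 0.19, adjusted p = 0.000389). CEBPB, a transcription factor of the myeloid lineage, stood at 6299 and 6774 units in Mac_Dex, against 2243, 2214 and 2035 in Mac_Vehicle, and 720.5, 694 and 681 in Mono_Dex, against 435, 409.9 and 465 in Mono_Vehicle. Its difference was 0.92 (SE 0.09, adjusted p = 4.52e-06). The Janus kinases JAK1 and JAK2, which carry cytokine receptor signals, differed by 0.86 (SE 0.11, adjusted p = 3.57e-05) and by 0.68 (SE 0.08, adjusted p = 3.23e-05). JAK1 rose 2.18-fold in macrophages and 1.20-fold in monocytes, while JAK2 rose 2.03-fold in macrophages and 1.27-fold in monocytes.

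ITGA5, the alpha chain of the main fibronectin receptor, was among the most abundant of these transcripts, at 20594 ± 32.4 units in Mac_Dex, against 7939.8 ± 621 in Mac_Vehicle, and 2009 ± 57.9 in Mono_Dex, against 1325 ± 52.4 in Mono_Vehicle. Its difference of 0.78 (SE 0.08, adjusted p = 7.96e-06) depended on the scaling and was 0.26 (adjusted p = 0.00998) after quantile normalization. TLR2, a receptor for bacterial lipopeptides, rose 2.24-fold in macrophages and rose 1.66-fold in monocytes. Its difference was 0.43 (SE 0.08, adjusted p = 0.00169), and 0.25 (adjusted p = 0.0128) after quantile normalization. CXCR4, the receptor of CXCL12, rose 4.24-fold in macrophages and 3.33-fold in monocytes. Its signal was 1849.8 ± 66.4 units in Mac_Dex, against 437 ± 49.4 in Mac_Vehicle, and 4728 ± 76.1 in Mono_Dex, against 1422 ± 76.9 in Mono_Vehicle, and the rises differed by 0.35 (SE 0.11, adjusted p = 0.0264). That call was lost without Mono_Vehicle replicate 1, Mono_Dex replicate 2, Mono_Dex replicate 3 or Mac_Dex replicate 5, where the difference was 0.31 (adjusted p = 0.0711), 0.34 (adjusted p = 0.0588), 0.35 (adjusted p = 0.0521) and 0.32 (adjusted p = 0.0863). SKI, a repressor of TGF-beta signalling, differed by 0.42 (SE 0.08, adjusted p = 0.00122). MAPK14, the p38 alpha kinase, differed by 0.26 (SE 0.08, adjusted p = 0.035), a call lost in 7 of the 11 fits that left out a sample (highest adjusted p = 0.115).

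A protease, adaptors and receptor chains were among the 11 genes that rose in macrophages with no call in monocytes. CTSC, the protease that activates granule serine proteases, stood at 21967 and 23379.8 units in Mac_Dex, against 14020.3, 13265 and 13112 in Mac_Vehicle, and 4812, 4697 and 4483 in Mono_Dex, against 4734, 4496 and 4489 in Mono_Vehicle. The monocyte groups overlapped, Mac_Dex was 1.68 times Mac_Vehicle, and the difference was 0.72 (SE 0.07, adjusted p = 3.88e-06). MCL1, a survival protein of the BCL2 family, had a difference of 0.68 (SE 0.07, adjusted p = 1.07e-05), and 0.38 (adjusted p = 0.000863) after quantile normalization. IL6ST (gp130), the shared signalling chain of the interleukin-6 family receptors, stood at 1329 and 1244 units in Mac_Dex, against 893, 848 and 762 in Mac_Vehicle, and 508, 481 and 527 in Mono_Dex, against 550.4, 515 and 544 in Mono_Vehicle. It rose 1.54-fold in macrophages, and the difference was 0.71 (SE 0.10, adjusted p = 0.00012). TRAF6, an adaptor downstream of Toll-like and interleukin-1 receptors, differed by 0.57 (SE 0.18, adjusted p = 0.035), and IL1RAP, the accessory chain of the interleukin-1 receptor, by 0.44 (SE 0.15, adjusted p = 0.0421). Their calls were lost in 5 and 10 of the 11 fits that left out a sample, with highest adjusted p of 0.116 and 0.118. CASP8, an initiator caspase, differed by 0.38 (SE 0.10, adjusted p = 0.0117), and by 0.27 (adjusted p = 0.0678) without Mac_Dex replicate 5. SDHA, a mitochondrial enzyme on the housekeeping list, differed by 0.40 (SE 0.13, adjusted p = 0.037), a call lost in 7 of those fits (highest adjusted p = 0.115).

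Chemokines, surface receptors and an interferon-induced gene were among the 11 genes that fell in monocytes and fell less, or were not called, in macrophages. CCL24, a chemoattractant of eosinophils, had the most positive difference of the 294 genes, 3.10 (SE 0.30, adjusted p = 4.52e-06). It stood at 39.5 and 31.6 units in Mac_Dex, against 42.0, 32.1 and 31.8 in Mac_Vehicle, and 38.0, 33.2 and 52.8 in Mono_Dex, against 346, 339.7 and 374 in Mono_Vehicle. Mono_Vehicle lay far above the 8 samples of the other 3 groups, which were all between 31.6 and 52.8 units and overlapped. Mac_Vehicle was thus close to the floor of 20 units, which leaves little room to measure a fall in macrophages. IL8 (CXCL8), a neutrophil chemoattractant, stood at 2203 and 3277 units in Mac_Dex, against 16639, 15932 and 13198 in Mac_Vehicle, and 192, 209.8 and 235 in Mono_Dex, against 2774, 2910.2 and 3067 in Mono_Vehicle. It fell in both states, to 0.180 of the vehicle mean in macrophages and to 0.0727 of it in monocytes, and the difference was 1.28 (SE 0.19, adjusted p = 0.000138). The Mac_Dex samples lay on either side of the Mono_Vehicle range. CCL5, a chemokine that attracts T cells and monocytes, fell to 0.851 of the vehicle mean in macrophages and to 0.653 in monocytes, a difference of 0.38 (SE 0.09, adjusted p = 0.00514). With the replicate number as a block in the fit the difference was 0.34 (adjusted p = 0.117). CD36, a scavenger receptor for oxidised lipoproteins, fell to 0.879 of the vehicle mean in macrophages and 0.639 in monocytes, a difference of 0.46 (SE 0.07, adjusted p = 0.000237).

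CSF1R, the receptor for macrophage colony-stimulating factor, stood at 562 and 677 units in Mac_Dex, against 703, 626 and 527 in Mac_Vehicle, and 53.5, 49.6 and 52.8 in Mono_Dex, against 88.1, 88.1 and 79.0 in Mono_Vehicle. The macrophage groups overlapped, all Mono_Dex samples were below all Mono_Vehicle samples, and the difference was 0.70 (SE 0.19, adjusted p = 0.0133). It was 0.57 (adjusted p = 0.0692) without Mac_Dex replicate 5. MX1, an interferon-induced antiviral GTPase, stood at 2194 and 3979 units in Mac_Dex, against 4217, 3599 and 2747 in Mac_Vehicle, and 104, 124 and 107 in Mono_Dex, against 224, 285 and 239 in Mono_Vehicle. Its Mac_Dex samples were far apart, and the difference of 0.92 (SE 0.28, adjusted p = 0.0305) lost its call in 6 of the 11 fits that left out a sample. It was 0.49 (adjusted p = 0.154) without Mac_Dex replicate 5. ITGA6, an integrin alpha chain that binds laminin, was at 44.3 to 48.6 units in Mono_Dex, against 62.2 to 84.3 in Mono_Vehicle, and at 1157 to 1359 in the macrophage samples. Its difference was 0.61 (SE 0.17, adjusted p = 0.0202), 0.56 (adjusted p = 0.0735) without Mac_Dex replicate 5 and 0.28 (adjusted p = 0.332) after quantile normalization. CTSG, a neutrophil granule protease, was 1304 ± 4.19 units in Mac_Dex, against 1313 ± 109 in Mac_Vehicle, and 9177 ± 65.7 in Mono_Dex, against 11281 ± 539.8 in Mono_Vehicle, with a difference of 0.29 (SE 0.08, adjusted p = 0.0202). Its call was lost without Mono_Vehicle replicate 1, Mac_Vehicle replicate 3 or Mac_Dex replicate 1, at 0.25 (adjusted p = 0.0553), 0.27 (adjusted p = 0.0543) and 0.29 (adjusted p = 0.0515), and quantile normalization gave 0.47 (adjusted p = 9.46e-06).

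The larger set of negative differences, 23 of 36, came from genes that fell in macrophages and fell less, or were not called, in monocytes. Receptors of chemokines, growth factors and bacterial products were among them. CX3CR1, the fractalkine receptor of monocytes and macrophages, stood at 122 and 106 units in Mac_Dex, against 389, 292 and 385 in Mac_Vehicle, and 297, 299 and 307 in Mono_Dex, against 366, 349 and 362 in Mono_Vehicle. Mac_Dex was 0.320 of Mac_Vehicle, the change in monocytes was -0.25 on the log2 scale (adjusted p = 0.0867), and the difference was -1.37 (SE 0.16, adjusted p = 2.37e-05). CD83, a surface marker of dendritic cell maturation, stood at 122 and 147 units in Mac_Dex, against 718, 616 and 599 in Mac_Vehicle, and 118, 145 and 135 in Mono_Dex, against 276, 247 and 275 in Mono_Vehicle. It fell in both states, to 0.209 of vehicle in macrophages and 0.498 in monocytes. Both Dex groups came to the same range, 118 to 147 units, although their vehicle groups differed, and the difference was -1.25 (SE 0.17, adjusted p = 8.1e-05). TLR4, the receptor for bacterial lipopolysaccharide, stood at 245 and 246 units in Mac_Dex, against 621, 529 and 569.5 in Mac_Vehicle, and 262, 222 and 275 in Mono_Dex, against 336, 291 and 284 in Mono_Vehicle. Mac_Dex lay in the range of Mono_Dex while Mac_Vehicle was the highest group, and the difference was -0.95 (SE 0.15, adjusted p = 0.000288). TLR1, the partner of TLR2 in recognising triacylated lipopeptides, stood at 266 and 284 units in Mac_Dex, against 731, 688 and 637 in Mac_Vehicle, and 71.9, 52.5 and 63.9 in Mono_Dex, against 88.1, 87.3 and 92.2 in Mono_Vehicle. It fell in both states, and the difference was -0.80 (SE 0.18, adjusted p = 0.00575). With the replicate number as a block in the fit it was -0.69 (adjusted p = 0.0966).

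KIT, the receptor for stem cell factor, stood at 24.8 and 36.1 units in Mac_Dex, against 67.5, 59.1 and 69.6 in Mac_Vehicle, and 126, 135 and 126 in Mono_Dex, against 135, 113 and 117 in Mono_Vehicle. The monocyte groups overlapped, and the difference was -1.19 (SE 0.26, adjusted p = 0.00371). NOTCH1 stood at 323 and 451 units in Mac_Dex, against 807, 678 and 609 in Mac_Vehicle, and 268, 279 and 295 in Mono_Dex, against 246, 236 and 275 in Mono_Vehicle. It fell in macrophages, where NOTCH2 rose, and its difference was -1.01 (SE 0.19, adjusted p = 0.00113). POU2F2, the octamer-binding factor of B cells that is also present in myeloid cells, stood at 137 ± 29.5 units in Mac_Dex, against 262 ± 37.5 in Mac_Vehicle, and 98.7 ± 12.5 in Mono_Dex, against 91.8 ± 8.91 in Mono_Vehicle, a difference of -1.04 (SE 0.24, adjusted p = 0.00605). CSF2RB, the signalling chain shared by the receptors of GM-CSF and related cytokines, stood at 54.2 and 84.7 units in Mac_Dex, against 195, 178 and 176 in Mac_Vehicle, and 104, 96.9 and 93.0 in Mono_Dex, against 129, 153 and 128 in Mono_Vehicle. Its difference of -0.94 (SE 0.24, adjusted p = 0.0112) was -0.63 (adjusted p = 0.0507) without Mac_Dex replicate 1. IKBKE, a kinase that activates interferon regulatory factors, was 164 ± 47.0 units in Mac_Dex, against 350.3 ± 51.4 in Mac_Vehicle, and 243 ± 15.2 in Mono_Dex, against 284 ± 28.1 in Mono_Vehicle, a difference of -0.89 (SE 0.22, adjusted p = 0.00846). TNFRSF1B, a TNF receptor of leukocytes, was 888 ± 49.7 units in Mac_Dex, against 1392 ± 98.7 in Mac_Vehicle, and 275 ± 2.98 in Mono_Dex, against 290.0 ± 32.8 in Mono_Vehicle, a difference of -0.58 (SE 0.12, adjusted p = 0.00367). With the replicate number as a block in the fit, POU2F2 differed by -1.11 (adjusted p = 0.0635) and IKBKE by -0.93 (adjusted p = 0.0955). In that fit TNFRSF1B differed by -0.53 (adjusted p = 0.102) and CSF2RB by -0.88 (adjusted p = 0.129).

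Other deeper falls in macrophages lost their call when some of the samples were left out. TCF4, a basic helix-loop-helix transcription factor, stood at 24.8 and 60.4 units in Mac_Dex, against 137, 126 and 117 in Mac_Vehicle, and 48.3, 43.8 and 30.6 in Mono_Dex, against 53.8, 50.5 and 57.9 in Mono_Vehicle. Its Mac_Dex samples were far apart, and the difference of -1.26 (SE 0.42, adjusted p = 0.0399) lost its call in 9 of the 11 fits that left out a sample, with -0.63 (adjusted p = 0.198) without Mac_Dex replicate 1. IRF1, a transcription factor of the interferon response, differed by -0.71 (SE 0.25, adjusted p = 0.0493), with -0.34 (adjusted p = 0.259) without Mac_Dex replicate 1 and -1.07 (adjusted p = 0.00146) without Mac_Dex replicate 5, and its call was lost in 9 such fits. PTPN22, a phosphatase of immune receptor signalling, was at 21.8 and 24.0 units in Mac_Dex, near the floor. It differed by -0.85 (SE 0.24, adjusted p = 0.0207), with -1.48 (adjusted p = 0.0002) after quantile normalization. Without Mono_Vehicle replicate 1, Mono_Dex replicate 2 or Mac_Dex replicate 1 it was -0.81 (adjusted p = 0.0536), -0.80 (adjusted p = 0.0537) and -0.78 (adjusted p = 0.0507). TYK2, a Janus kinase, differed by -0.50 (SE 0.14, adjusted p = 0.0186), with -0.44 (adjusted p = 0.053) without Mac_Vehicle replicate 3 and -0.48 (adjusted p = 0.0511) without Mac_Dex replicate 1. TGFBR1, a receptor kinase for TGF-beta, and LAIR1, an inhibitory collagen receptor, fell in both states and differed by -0.40 (SE 0.13, adjusted p = 0.0377) and -0.28 (SE 0.09, adjusted p = 0.035). Their calls were lost in 9 and 8 fits, and LAIR1 was -0.17 (adjusted p = 0.185) without Mac_Dex replicate 1.

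The remaining 9 negative differences were rises in monocytes, with a smaller rise or no called change in macrophages. NFKBIA, the inhibitor that retains NF-kB in the cytoplasm and a known glucocorticoid target, stood at 7815 and 8486 units in Mac_Dex, against 5469, 4935 and 4735 in Mac_Vehicle, and 5081, 5355 and 5306 in Mono_Dex, against 1973, 1842 and 1891 in Mono_Vehicle. Dex raised it 1.62-fold in macrophages and 2.76-fold in monocytes. Mono_Dex reached the level of Mac_Vehicle, Mac_Dex was the highest group, and the difference was -0.77 (SE 0.08, adjusted p = 9.96e-06). IFNGR1, the ligand-binding chain of the interferon gamma receptor, stood at 8709.6 and 9333 units in Mac_Dex, against 8502, 7813 and 8116 in Mac_Vehicle, and 3792, 3784 and 3707 in Mono_Dex, against 1913, 1765 and 1854 in Mono_Vehicle. It rose 1.11-fold in macrophages and 2.04-fold in monocytes, a difference of -0.88 (SE 0.07, adjusted p = 1.05e-06). The tetraspanins CD53 and CD81, membrane organisers of leukocytes, rose in both states with differences of -0.32 (SE 0.07, adjusted p = 0.00557) and -0.23 (SE 0.06, adjusted p = 0.0152). With the replicate number as a block in the fit the difference of CD53 was -0.29 (adjusted p = 0.112). After quantile normalization the difference of CD53 was -0.49 (adjusted p = 6.48e-05) and that of CD81 was -0.10 (adjusted p = 0.514). CD81 was also not called after median centring, at -0.18 (adjusted p = 0.138), or without Mac_Dex replicate 5, at -0.22 (adjusted p = 0.052).

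SPP1 (osteopontin), a secreted phosphoprotein of macrophages, stood at 66654 and 66246 units in Mac_Dex, against 79234, 74477 and 72802 in Mac_Vehicle, and 239, 252 and 235 in Mono_Dex, against 133, 122 and 157 in Mono_Vehicle. It ranked at position 2 of the 294 genes by mean signal in both macrophage groups. It rose 1.76-fold in monocytes, its change in macrophages was -0.18 (adjusted p = 0.0809), and the difference was -1.00 (SE 0.11, adjusted p = 1.01e-05). CD9, a tetraspanin, stood at 1788 ± 82.9 units in Mac_Dex, against 2112 ± 168 in Mac_Vehicle, and 121 ± 8.32 in Mono_Dex, against 89.4 ± 7.27 in Mono_Vehicle, with a difference of -0.67 (SE 0.13, adjusted p = 0.00169). BCL2L11, the death-promoting protein BIM, was 166 ± 12.2 units in Mac_Dex, against 156 ± 22.6 in Mac_Vehicle, and 166 ± 21.9 in Mono_Dex, against 98.0 ± 10.9 in Mono_Vehicle. Its difference of -0.66 (SE 0.22, adjusted p = 0.0436) lost its call in 8 of the 11 fits that left out a sample (highest adjusted p = 0.127). PECAM1, an adhesion molecule, differed by -0.22 (SE 0.06, adjusted p = 0.0198), and FCGRT, the neonatal Fc receptor that recycles IgG, by -0.19 (SE 0.06, adjusted p = 0.0377). FCGRT lost its call in 9 such fits and after median centring, at -0.15 (adjusted p = 0.13). PECAM1 lost it without Mono_Vehicle replicate 3, at -0.21 (adjusted p = 0.052), without Mono_Dex replicate 2, at -0.20 (adjusted p = 0.0537), and without Mac_Dex replicate 5, at -0.21 (adjusted p = 0.0587). It was -0.17 (adjusted p = 0.116) after median centring and -0.08 (adjusted p = 0.398) after quantile normalization. For SPP1, CD9 and PECAM1 every Mac_Dex sample lay below every Mac_Vehicle sample. The log2 change in macrophages was -0.24 (adjusted p = 0.0573) for CD9 and -0.10 (adjusted p = 0.093) for PECAM1, not called. CCL5, BCL2L11, IFNGR1, CD53 and CD81 were chosen for description after their values were seen.

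The promoters of IL8, NFKBIA and NFKBIZ are shown because all 3 genes belong to the NF-kB system, as a target, an inhibitor and a co-regulator, and their responses differed between the states in different ways: a fall that was shallower in macrophages, a rise that was smaller in macrophages and a rise that was larger there. Each is the 250 bases before the transcript start in RefSeq's GRCh38.p14 annotation, at chr4:73740319-73740568 on the plus strand, chr14:35404750-35404999 on the minus strand and chr3:101827740-101827989 on the plus strand. Capitals mark matches to an NF-kB-type motif, GGANNTTCC, or in IL8 also to an AP-1-type motif, TGANTCA.
IL8: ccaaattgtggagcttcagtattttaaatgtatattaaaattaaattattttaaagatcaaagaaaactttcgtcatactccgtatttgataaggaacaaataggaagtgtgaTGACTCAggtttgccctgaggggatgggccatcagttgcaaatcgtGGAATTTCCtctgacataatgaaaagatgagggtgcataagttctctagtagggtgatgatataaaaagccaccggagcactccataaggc
NFKBIA: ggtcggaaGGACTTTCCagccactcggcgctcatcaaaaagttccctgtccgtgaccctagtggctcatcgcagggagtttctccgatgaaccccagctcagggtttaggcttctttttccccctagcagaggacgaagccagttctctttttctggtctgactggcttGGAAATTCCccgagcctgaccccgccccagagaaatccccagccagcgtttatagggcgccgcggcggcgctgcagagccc
NFKBIZ: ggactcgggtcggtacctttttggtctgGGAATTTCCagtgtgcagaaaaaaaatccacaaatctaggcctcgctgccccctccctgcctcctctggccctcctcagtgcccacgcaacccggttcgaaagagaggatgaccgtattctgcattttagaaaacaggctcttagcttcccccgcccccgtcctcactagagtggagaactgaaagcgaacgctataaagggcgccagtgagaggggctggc
In IL8 the NF-kB-type match GGAATTTCC began 91 bases before the start and the AP-1-type match TGACTCA 137 bases before it. NFKBIA had GGACTTTCC at 242 and GGAAATTCC at 81 bases before the start. NFKBIZ had GGAATTTCC at 222 bases before the start. None of the 3 windows held TGTTCT, a hexamer of the glucocorticoid receptor motif. Both strands were searched, and no motif overlapped another. Promoters were on hand for 236 of the 294 genes. The NF-kB-type motif was found in 5 of 35 genes with a positive difference (14.3%), 2 of 29 with a negative one (6.90%), 12 of 172 with none called (6.98%) and 1060 of all 27305 promoters (3.88%). The AP-1-type motif was found in 3 (8.57%), 0, 6 (3.49%) and 1801 (6.60%) of the same sets, and the hexamer in 3 (8.57%), 4 (13.8%), 16 (9.30%) and 3397 (12.4%). These are counts of letters in short windows, with no test, and a match is not a binding site.

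Beside the opposite responses stood the genes that Dex moved in the same direction, by like or unlike amounts. The same direction was called in both states for 83 of the 294 genes, of which 38 rose and 45 fell. Shared, opposite and absent calls were counted over the 294 genes alone, not over the 379 fitted probes. The difference was called for 29 of the 83 and not for 54, and for 41 genes the 95% interval of the difference lay within 0.5 log2 units of 0. Some genes are in both the 29 and the 41, among them CD53, CD81, MAPK14 and LAIR1, whose differences were small but called. IL13RA1, a cytokine receptor chain, rose 1.80-fold in macrophages and 2.09-fold in monocytes (interval of the log2 difference -0.45 to 0.01). LCP2, an adaptor of immune receptor signalling, rose 1.51-fold in macrophages and 1.65-fold in monocytes (interval -0.30 to 0.07). IRF8, which directs monocyte and dendritic cell development, stood at 515 and 549.5 units in Mac_Dex, against 998, 1056 and 1013 in Mac_Vehicle, and 2125, 2170.4 and 2246 in Mono_Dex, against 3864, 3651 and 3844 in Mono_Vehicle. Levels differed between the states with either treatment, and the interval of the difference was -0.30 to 0.01. ALAS1, the rate-limiting enzyme of haem synthesis and also on the housekeeping list, fell to 0.538 of vehicle in macrophages and 0.590 in monocytes (interval -0.33 to 0.07). The integrin chain ITGAL, the kinase FYN, the urokinase receptor PLAUR and the survival protein BCL2 fell in both states, with intervals of -0.25 to 0.28, -0.38 to 0.31, -0.42 to 0.33 and -0.28 to 0.32.

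TNF, the cytokine that starts many inflammatory cascades, stood at 217 and 402 units in Mac_Dex, against 588, 536 and 467 in Mac_Vehicle, and 258, 277 and 243 in Mono_Dex, against 367, 417 and 359.5 in Mono_Vehicle. It fell in both states, and its Mac_Dex samples were far apart. The difference of -0.28 (SE 0.25, adjusted p = 0.466) was not called, with an interval of -0.83 to 0.26 on the log2 scale. Neither state's response was called for 122 genes, and for 66 of them the interval of the difference lay within 0.5. In all, the interval lay within 0.5 for 131 of the 294 genes, some of them with a called difference. For 96 genes with no called difference it reached past 0.5, so a difference over 0.5 lay within the error of these samples.

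**Figure D3:**
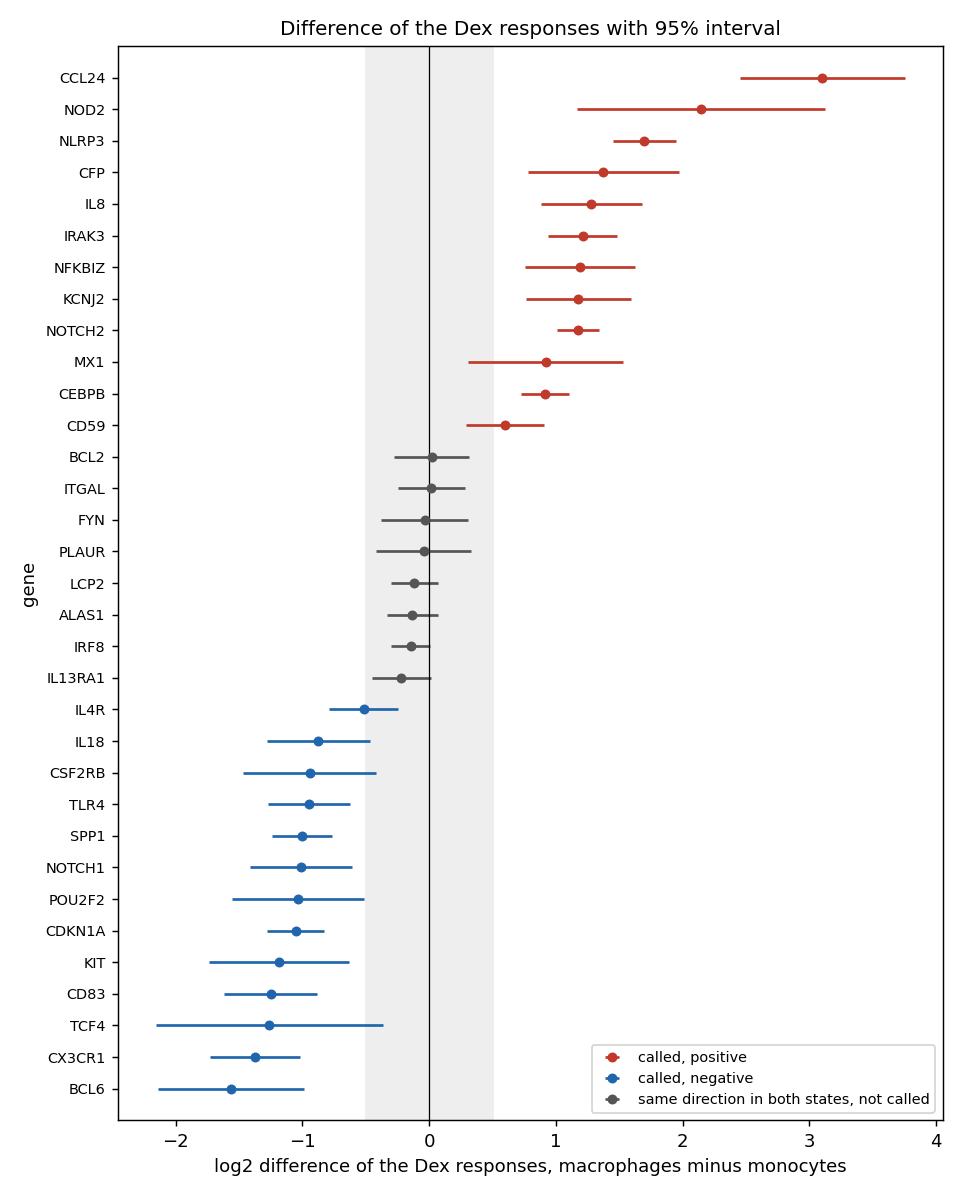
Log2 difference of the Dex responses, macrophages minus monocytes, with its 95% interval for a selection of the described genes, each row 1 gene; the vertical line marks equal responses and the shaded band differences within 0.5. CCL24 lies farthest to the right at 3.10 and BCL6 farthest to the left at -1.56, and the genes moved alike in both states have intervals within 0.5 of 0.

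By function, the differences were set against 41 positive and 36 negative among the 293 genes other than FKBP5, with a median of 0.04. Of the 12 listed glucocorticoid targets on the panel, 8 were above the floor in all groups, FKBP5 included, and CD163 was among those left out. The split of the listed targets thus holds for that part alone. Among the 7 of these known targets other than FKBP5, IRAK3, CEBPB and CXCR4 were positive and BCL6, CDKN1A and NFKBIA negative, with a median difference of 0.27. With Dex, 5 of the 7 rose and 2 fell in macrophages, and 6 rose and none fell in monocytes. Among the 6 inflammasome and NOD genes, NLRP3 and NOD2 were positive and none negative (median 0.06). Among the 6 chemokine ligands above the floor in all groups, CCL24, IL8 and CCL5 were positive and none negative (median 0.42), and 4 fell in macrophages and 5 in monocytes. Of the 9 chemoattractant receptors, CXCR4 was positive and CX3CR1 negative (median -0.18). Complement genes had 3 positive of 8 and none negative (median 0.31).

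Of the 14 cytokine and growth factor receptors, 2 were positive (IL6ST and CSF1R) and 6 negative (KIT, CSF2RB, IFNGR1, IL6R, IL4R and IFNAR2), with a median of -0.28. In the Toll-like receptor pathway, TLR2 and IRAK3 were positive while TLR1, TLR4 and TOLLIP were negative, of 11 genes (median 0.12). In the NF-kB pathway, NFKBIZ and TRAF6 were positive and IKBKE, NFKBIA and MALT1 negative, of 20 genes (median 0.20). The Janus kinases and STAT factors had JAK1 and JAK2 positive and TYK2 negative of 11 (median -0.07). Costimulatory and checkpoint genes had CD83 and LAIR1 negative and none positive of 11 (median -0.28). Transcription factors had CEBPB positive and BCL6, TCF4, POU2F2 and NFATC3 negative of 23 (median -0.02).

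MHC class II had no called difference among 6 genes (median -0.04), and MHC class I had 1 positive and none negative among 16 (median 0.04). The interferon response had MX1 positive and IRF1 negative of 14 (median 0.10), the TNF superfamily had TNFRSF1B negative of 8 (median -0.12), and the Fc receptors FCGRT negative of 5 (median -0.15). Integrins and adhesion genes had 3 positive and 2 negative of 21 (median 0.03), apoptosis and cell-cycle genes 2 and 3 of 15 (median -0.08), MAP kinase and signalling genes 2 and 1 of 16 (median 0.13), and TGF-beta and Notch genes 2 and 2 of 10 (median 0.03). Granule and antimicrobial genes had CTSC and CTSG positive of 5 (median 0.24), the interleukin-1 family IL1RAP positive and IL18 negative of 3 (median -0.43), and scavenger and lectin receptors CD36 positive of 3 (median -0.04). The 15 housekeeping genes had SDHA positive and none negative (median 0.05). With Dex, 3 of the 15 rose and 1 fell in macrophages, and 1 rose and 1 fell in monocytes, the fall being ALAS1 in both. In none of these lists was the list itself tested.

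**Figure D4:**
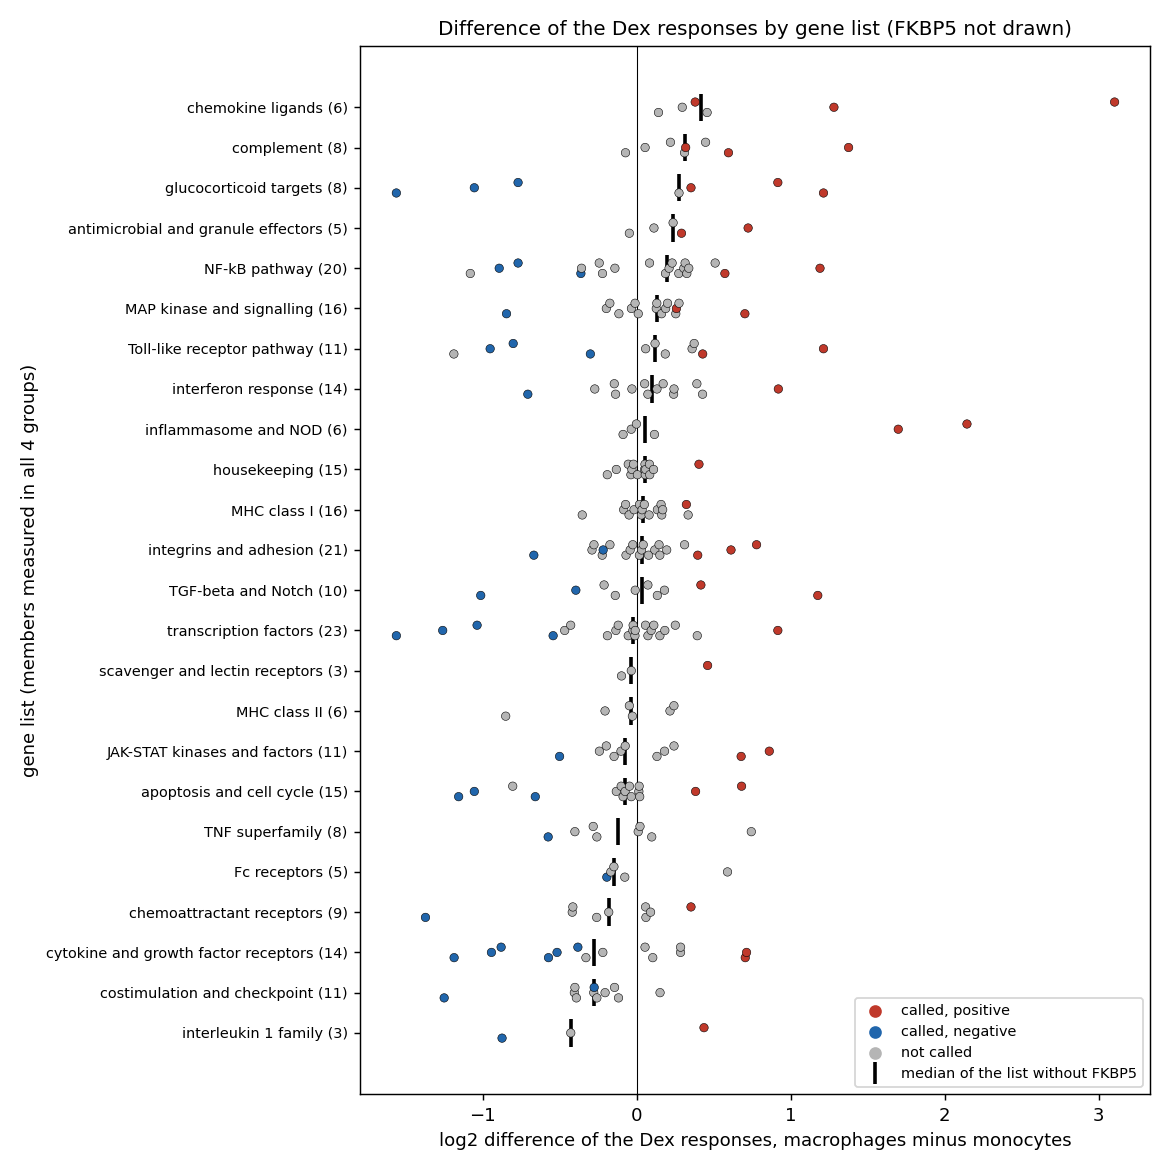
Log2 difference of the Dex responses, macrophages minus monocytes, for the genes of 24 lists, 1 point a gene, with a bar at each list's median (FKBP5 left out of both); coloured points had a called difference and grey points did not. Chemokine ligands have a median of 0.42 and cytokine and growth factor receptors of -0.28, beside 0.04 over all 294 genes.

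The floor decided which genes were read. The probes just outside it were CD14 at 18.3 units, TLR3 at 18.8 and CXCL2 at 19.8, each for its mean in Mono_Dex. Those just inside were HLA-DOB at 20.8 and IRAK2 at 21.2 in Mono_Vehicle. A further 85 probes passed the floor in at least 1 group but not in all, among them IL1B, CCL2, CD163 and CD14, and 215 of the 594 endogenous probes were under it in all 4 groups.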

How the data were processed

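THP-1 RNA (50 ng per sample) was measured by nCounter in 11 samples of 4 groups, named by the labels. The authors deposited normalized signal per probe and checked its quality in nSolver, per the labels. The nSolver version and background rule were not given in the sources used here, nor were the reference genes, so the values are not counts and no count test was run.

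The 379 endogenous probes, of 594 (608 with controls), whose highest group mean was at least 20 were fitted in 1 model of 4 groups on log2(value + 1) with limma 3.58.1 in R 4.3.3 (lmFit, eBayes with a trend). P-values were adjusted by Benjamini-Hochberg over all 379, within each contrast, and the script was tested on simulated data. Printed folds are ratios of group means. The 294 genes with a mean of at least 20 in all 4 groups are reported. Genes described were the 12 most positive and 12 most negative called differences, all moved in opposite directions, up to 8 moved alike, up to 2 per direction in each of 24 gene lists, and TNF, NFKBIA, CXCR4, TLR2, NLRP3, IL8 and FKBP5. Some genes that meet this rule are not reported here. Members and lists were chosen with earlier results of these data known. Of the 294 names, 282 are current symbols, 5 are older ones (C14orf166, CD3EAP, IKBKAP, IL8 and TMEM173) and 7 had no match and keep the table's name. Alternatives changed the pseudocount, filter, scaling, variance model and samples.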

Additional observations from a re-analysis of the deposited data

Results flagged for a closer look

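For 60 described genes the Dex response differed between macrophages and monocytes by the interaction test, and each stands here with its log2 difference, macrophages minus monocytes. Those that rose in macrophages and fell in monocytes were NOD2 (2.14), NLRP3 (1.70), NOTCH2 (1.18) and CD59 (0.60). Those that fell in macrophages and rose in monocytes were BCL6 (-1.56), CDKN1A (-1.05), IL18 (-0.87) and IL4R (-0.52). Rises in both states were larger in macrophages for CFP (1.38), IRAK3 (1.21), NFKBIZ (1.19), KCNJ2 (1.18), CEBPB (0.92), JAK1 (0.86), ITGA5 (0.78), JAK2 (0.68), TLR2 (0.43), SKI (0.42), CXCR4 (0.35) and MAPK14 (0.26). Rises were called in macrophages and not in monocytes for CTSC (0.72), IL6ST (0.71), MCL1 (0.68), TRAF6 (0.57), IL1RAP (0.44), SDHA (0.40) and CASP8 (0.38). Falls were called in monocytes and not in macrophages for CCL24 (3.10), MX1 (0.92), CSF1R (0.70), ITGA6 (0.61) and CTSG (0.29), and were deeper in monocytes for IL8 (1.28), CD36 (0.46) and CCL5 (0.38).

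Falls were called in macrophages and not in monocytes for CX3CR1 (-1.37), TCF4 (-1.26), KIT (-1.19), POU2F2 (-1.04), NOTCH1 (-1.01), TLR4 (-0.95), IKBKE (-0.89), PTPN22 (-0.85), IRF1 (-0.71), TNFRSF1B (-0.58) and TYK2 (-0.50), and were deeper in macrophages for CD83 (-1.25), CSF2RB (-0.94), TLR1 (-0.80), TGFBR1 (-0.40) and LAIR1 (-0.28). Rises were called in monocytes and not in macrophages for SPP1 (-1.00), CD9 (-0.67), BCL2L11 (-0.66), PECAM1 (-0.22) and FCGRT (-0.19), and were larger in monocytes for IFNGR1 (-0.88), NFKBIA (-0.77), CD53 (-0.32) and CD81 (-0.23).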

How the results depend on the processing

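The 78 called differences (42 positive, FKBP5 included, and 36 negative) were recomputed with another pseudocount, filter, scaling or variance model, with a replicate block, and without each sample. Leaving out each sample in turn gave 28 to 53 positive and 23 to 40 negative differences, 54 to 80 rises and 54 to 91 falls in macrophages, and 40 to 52 rises and 62 to 76 falls in monocytes. With the replicate number as a block there were 23 positive and 14 negative differences. Whether the numbers pair the samples is not stated in the labels. Deviations of same-numbered samples correlated between -0.36 and 0.0984, but 2 or 3 samples per group are too few to settle it. Median centring gave 108 rises in macrophages and 77 in monocytes, against 66 and 50, and shifted the median response to 0.11 in macrophages, against -0.02. The share of calls that were rises was then 62.8% in macrophages, against 46.8%, and 54.2% in monocytes, against 41.0%. Apart from leaving out Mac_Dex replicate 1, no other alternative moved these counts by over 1.5 times. Of the 60 described genes with a called difference other than FKBP5, 39 kept it whichever sample was left out, 56 under all 3 other scalings and 31 under every alternative, and none changed direction. The causes of these changes were not tested. With 2 Mac_Dex samples, low signal near 20 units and unknown background limit what can be read.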

Other observations

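Among the 85 probes with a mean under 20 units in some but not all groups, 20 had a called difference, 9 positive and 11 negative, whose size depends on the pseudocount. IL1B, the inflammatory cytokine processed by the inflammasome, stood at 339.5 and 452 units in Mac_Dex, against 5066, 5023 and 4479 in Mac_Vehicle, and at 7.78 to 12.7 in Mono_Dex, against 68.1, 78.9 and 92.8 in Mono_Vehicle. CD163, the scavenger receptor for haemoglobin-haptoglobin, stood at 597 and 709 units in Mac_Dex, against 165, 204 and 162 in Mac_Vehicle, and 37.3, 38.0 and 42.6 in Mono_Dex, against 1.00, 1.00 and 1.00 in Mono_Vehicle. Within each state the Dex and vehicle samples did not overlap, with IL1B lower and CD163 higher under Dex, and 1.00 is the lowest value in the monocyte samples. CCL2, a monocyte chemoattractant, stood at 1.47 and 22.5 units in Mac_Dex, against 88.1, 80.4 and 63.5 in Mac_Vehicle, and 1.00, 1.00 and 1.00 in Mono_Dex, against 70.9, 101 and 85.6 in Mono_Vehicle. CD14, the lipopolysaccharide co-receptor, stood at 41.0 and 46.8 units in Mac_Dex, against 206, 205 and 154 in Mac_Vehicle, and 22.5, 11.9 and 20.4 in Mono_Dex, against 49.0, 61.4 and 50.0 in Mono_Vehicle. CCL2 and CD14 were lower under Dex in both states, also without overlap. All 4 genes were chosen for description after their values were seen.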
